A study of Homo sapiens with 4 samples.

Results

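Glutamine carries an amide nitrogen that several enzymes cut off and pass to another molecule. These enzymes, the glutamine amidotransferases, join a domain that releases ammonia from glutamine to a domain that uses it, so they stand where glutamine enters the making of nucleotides and of the coenzyme NAD. The 7 human genes described here encode the enzymes of that kind in purine, pyrimidine and NAD synthesis: PPAT, PFAS, GMPS, CAD, CTPS1, CTPS2 and NADSYN1. They were chosen by this known function, and no measured value enters the rule, from 58560 genes to which the deposited transcript values were summed. All 7 were among the 24527 genes with enough counts to be tested.

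In purine synthesis PPAT carries out the committed step, PFAS a later ring-building step, and GMPS the last step to GMP. In pyrimidine synthesis CAD is a single protein that holds the first 3 activities of the pathway, and the paralogues CTPS1 and CTPS2 turn UTP into CTP at its end. NADSYN1 makes NAD from its acid precursor.

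A549 is an established human lung carcinoma line, and the labels name its cells as alveolar basal epithelial cells. The 2 control libraries came from cells in DMEM, a standard culture medium, with 10% serum and antibiotics, and the labels give their treatment as none. The 2 deprived libraries came from cells washed 3 times in PBS and then kept in DMEM without glutamine with 10% serum. The protocol gives 24 h without glutamine for both, whereas the labels give 24 h for deprived replicate 1 and 25 h for deprived replicate 2. Medium change, washing and the loss of glutamine cannot be told apart, since no wash is named for the controls. Nothing states that the replicates were separate cultures, so p-values measure only the spread between these libraries, which may be technical. The comparison asks how the transcript levels of these enzymes differ after about a day without their shared substrate.

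The libraries held between 101496318 and 123414592 estimated counts. After scaling by the trimmed mean of M-values (TMM), edgeR's quasi-likelihood test called 49.6% of tested genes at a Benjamini-Hochberg adjusted p under 0.05, of which 6174 were higher (25.2% of those tested) and 5982 lower (24.4%) in deprived cells. The median change of all genes was -0.06 on the log2 scale. Scaling by library size alone moved that median to -0.40 and the split to 4179 higher and 8565 lower. Levels are given as TMM-scaled CPM, counts scaled to a common library total. Summed over 9 markers of the epithelial line, they were 7574 and 7683 CPM in controls and 2020.5 and 1732 in deprived cells. Most of that sum was KRT8 and KRT18, with control means of 5194 and 2257 CPM and deprived means of 800.2 and 1033. The alveolar markers SFTPB and SFTPC and the lung factor NKX2-1 lay under 1 CPM in every library. SFTPB and SFTPC were not called, whereas NKX2-1 went against the sum and was called higher (log2 change 4.26 ± 0.60 (SE), edgeR adjusted p = 0.00175). The summed level of 4 cell cycle markers was 1825 and 1885 CPM in controls and 1025 and 958 in deprived cells. Of 5 blood markers, 2 reached 1 CPM (CD14 and HBB), and their list summed to 25.3 and 12.6 CPM in controls against 0.756 and 0.82 after deprivation. Fibroblast markers (6 genes, 1 at or above 1 CPM) summed to 3.44 CPM or less in each library and endothelial markers (4 genes, none at 1 CPM) to 0.735 or less. No marker list was at 0 as a whole, and the part of these shifts in the results below was not tested. In bulk RNA fewer cells of a kind and less RNA per cell cannot be told apart.

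Of the 7 amidotransferase genes, PPAT and CTPS1 rose, CAD, CTPS2 and NADSYN1 fell, and PFAS and GMPS did not pass the test. The 5 calls among 7 genes stand beside the 49.6% called among all genes. All 7 are protein-coding, and among protein-coding genes 34.3% were called higher and 29.8% lower. The control and deprived libraries overlapped for none of the 7, but the same held for 76.5% of all tested genes. The change in CTPS1 was of another size than the rest: it exceeded 2.6 on the log2 scale, while the other 6 lay between -0.50 and 0.29.

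**Figure D1:**
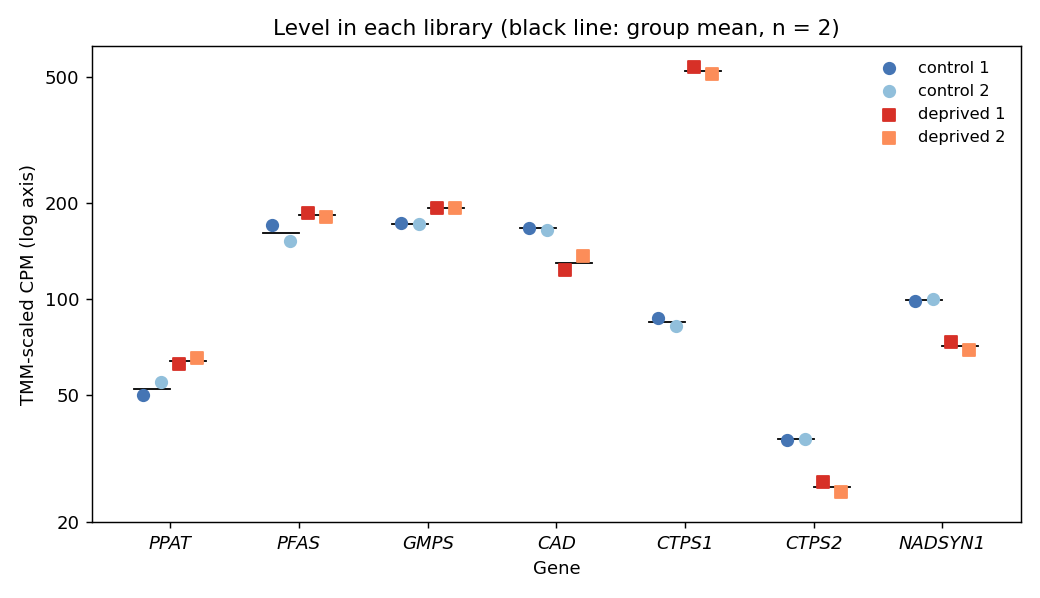
TMM-scaled CPM (log axis) of the 7 genes, with 1 point per library and a black line at each group mean (n = 2). CTPS1 lies at 87.3 and 82.7 CPM in control libraries (circles) and at 535 and 509 CPM in deprived libraries (squares), while each of the other genes moves by less than 1.5-fold.

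PPAT, which encodes the amidotransferase of the first committed purine step (ENSG00000128059, chr4:56393362-56435615, minus strand, GRCh38), was measured at 50.1 and 55 CPM in controls and at 62.9 and 65.7 CPM in deprived cells. Both deprived libraries were above both controls. The mean went from 52.5 ± 3.49 (SD, n = 2) to 64.3 ± 1.97 CPM, a rise of 0.29 ± 0.08 (SE) on the log2 scale or 1.22-fold (edgeR adjusted p = 0.0226). With library size as the only scaling the sign turned (-0.04), and the call was lost with upper-quartile scaling (adjusted p = 0.0986), without control replicate 1 (0.173) and without deprived replicate 2 (0.0536). Of the 50-base stretches in PPAT transcripts 7% also occur in other genes, most often the pseudogene PPATP1, and 2.22% of its exonic bases are shared with an antisense transcript of at most 55 counts. The authors' handling of shared reads and of strand is not given in the sources used here.

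PPAT lies head to head with PAICS, whose protein carries out 2 later steps of the same pathway without glutamine. In GENCODE 29 the 2 genes start 125 bases apart on opposite strands. The stretch between them is printed because both starts lie at its ends. It spans chr4:56435616-56435740 and is read here on the minus strand, towards PPAT.
PPAT to PAICS: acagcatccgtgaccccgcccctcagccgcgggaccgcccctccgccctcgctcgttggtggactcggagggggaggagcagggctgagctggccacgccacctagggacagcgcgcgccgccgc
PAICS was measured at 428 and 415 CPM in controls and at 357 and 330.4 CPM in deprived cells. It fell by 0.29 ± 0.08 on the log2 scale (edgeR adjusted p = 0.0228), so the neighbours were called in opposite directions. The call for PAICS was lost without control replicate 1 (adjusted p = 0.0813), control replicate 2 (0.0501) or deprived replicate 2 (0.136).

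Promoter windows from RefSeq (GRCh38.p14), each from 250 bases before to 50 bases after an annotated start, were found for all 7 genes. They were searched on both strands for 3 short motifs: TGATGNAA, the core of the composite element bound by ATF4 with C/EBP factors, CACGTG, the E-box, and TTTNNCGC, an E2F element. These occurred in 3.62%, 7.26% and 6.89% of 35116 promoter windows of the same length. The single match among the 7 genes was an E-box in the PPAT window, with its first base 182 bases before the start (-182) which is also position 40 counted from a RefSeq start of PAICS. ASNS, the gene of asparagine synthetase and the most raised gene among the other users of the amide nitrogen, held the ATF4 motif at position -68. Both matches are printed with 10 bases on either side and the motif in capitals, on the strand of the gene, from chr4:56435782-56435807 and chr7:97872459-97872486.
PPAT: cggagatttcCACGTGcagcaaatac
ASNS: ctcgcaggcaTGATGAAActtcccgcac
A match is a stretch of letters and not a measured binding site, and a window without one lacks only those letters.

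PFAS encodes the enzyme that adds the next glutamine nitrogen of the purine ring (ENSG00000178921, chr17:8247618-8270491, plus strand). It was at 171 and 153 CPM in controls and at 187 and 181 CPM in deprived cells. The deprived libraries were the higher ones, but the controls lay further apart than the gap between the groups. The difference of 0.19 ± 0.08 (95% interval from -0.01 to 0.38) did not pass edgeR's test (adjusted p = 0.109), and its sign turned to -0.15 with library size as the only scaling.

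GMPS, the gene of the enzyme that aminates XMP to GMP (ENSG00000163655, chr3:155870536-155944026, plus strand), was at 174 and 172 CPM in controls and at 194 in each deprived library. The replicates were close, with 173 ± 1.29 CPM in controls and 194 ± 0.067 CPM in deprived cells (SD, n = 2). The difference of 0.16 ± 0.07 on the log2 scale did not pass edgeR's test, whose spread is estimated with information from all genes (adjusted p = 0.0902). DESeq2 called it higher (0.19, adjusted p = 0.0321), and scaling by library size alone turned its sign (-0.18). The pseudogene GMPSP1 is the gene with which most of its shared 50-base stretches (3.34% of all) are shared.

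CAD encodes the first 3 enzymes of pyrimidine synthesis, of which the first takes the amide nitrogen (ENSG00000084774, chr2:27217390-27243943, plus strand). It was at 168 and 165 CPM in controls and at 124 and 137 CPM in deprived cells. Both deprived libraries were below both controls. The change was -0.36 ± 0.08 on the log2 scale, or 1.28-fold lower (edgeR adjusted p = 0.0104), and the call was kept in each of 13 other settings, in which the change ran from -0.69 to -0.28.

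CTPS1 encodes the CTP synthase that is known for its role in proliferating cells (ENSG00000171793, chr1:40979335-41012565, plus strand). It was at 87.3 and 82.7 CPM in controls and at 535 and 509 CPM in deprived cells. The 2 deprived libraries differed from each other far less than from the controls. The mean went from 85 ± 3.25 to 522 ± 18.3 CPM (SD, n = 2), a rise of 2.62 ± 0.08 on the log2 scale (95% interval from 2.42 to 2.81) or 6.14-fold, with an edgeR adjusted p of 1.32e-05. Of all tested genes, 522 (2.13%) were called higher with a change at least as large. Over the 13 other settings the change ran from 2.28 to 2.67 and the call was kept.

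**Figure D2:**
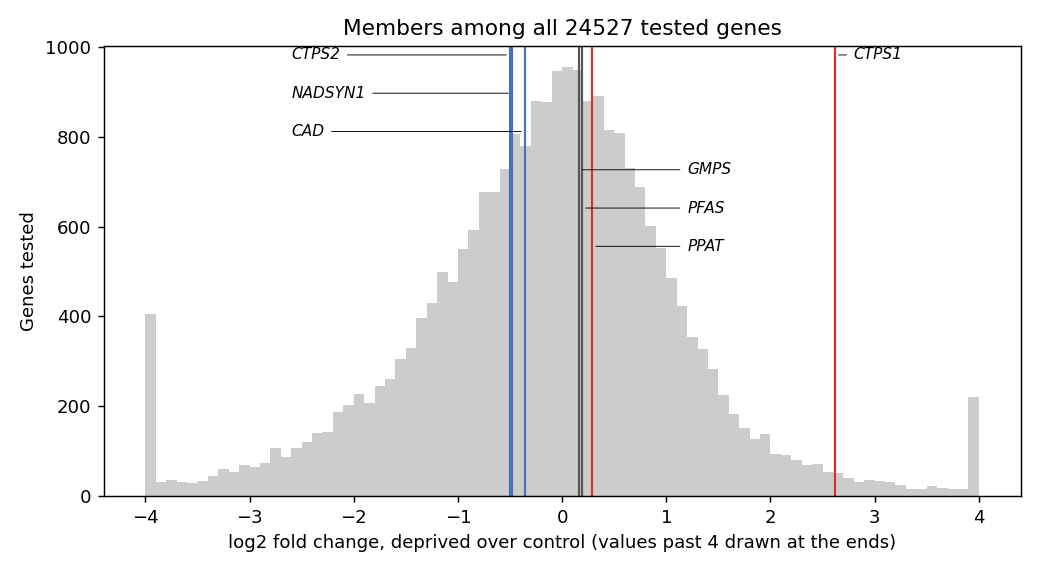
Histogram of the log2 fold change (deprived over control) of 24527 tested genes in grey, with a vertical line for each of the 7 genes, red where higher, blue where lower and dark grey where not called. CTPS1 at 2.62 exceeds 97.7% of all tested genes, whereas the other 6 lie in the body of the distribution.

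CTPS2, the gene of the second CTP synthase (ENSG00000047230, chrX:16588003-16712936, minus strand), was at 36.2 and 36.6 CPM in controls and at 26.8 and 24.8 CPM in deprived cells. Both deprived libraries were the lower ones. It fell by 0.50 ± 0.08 on the log2 scale, or 1.41-fold (edgeR adjusted p = 0.00276), opposite to its paralogue, and the call was kept in each of the 13 other settings. The 2 paralogues shared no exact 50-base stretch with each other, since CTPS2 shared none with any gene. Stretches that match with mismatches were not searched.

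The ratio of CTPS1 to CTPS2 counts does not depend on how libraries are scaled. It was 2.41 and 2.26 in controls and 19.9 and 20.5 in deprived cells. On the log2 scale its mean moved from 1.22 (SD 0.0658) to 4.34 (SD 0.0309), a difference of 3.12. With 2 libraries against 2 the two-sided exact permutation test gave p = 0.333, the smallest it can give. Per transcript length the ratio was 2.56 and 2.58 in controls and 23.2 and 21.6 in deprived cells, so CTPS1 made up 71.9% and 72% of the CTP synthase transcripts in controls and 95.9% and 95.6% after deprivation. The level of the ratio depends on the transcripts summed. Over the analysed protein-coding transcripts alone the count ratio was 0.857 and 0.672 in controls, with CTPS1 below CTPS2, and 7.08 and 6.92 in deprived cells. The CTPS1 sums in all these ratios lack the annotated transcript CTPS1-202, which holds coding bases, whereas every annotated CTPS2 transcript had a value. The level of CTPS1 relative to CTPS2 with CTPS1-202 included is therefore not known. The sum of both genes on the length scale described below was 82.2 and 72.4 in controls and 279 and 276 in deprived cells.

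NADSYN1 encodes NAD synthetase, which amidates nicotinic acid adenine dinucleotide (ENSG00000172890, chr11:71453109-71524107, plus strand). It was at 98.9 and 100.1 CPM in controls and at 73.7 and 69.3 CPM in deprived cells. The groups lay well apart compared with the spread inside each. It fell by 0.48 ± 0.07 on the log2 scale, or 1.39-fold (edgeR adjusted p = 0.00201), and the call was kept in each of the 13 other settings, with changes from -0.81 to -0.42.

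Levels of different genes were compared after dividing each transcript's value by its length and scaling each library to the same total. That scale has no TMM factors. The CTPS1 sum lacks CTPS1-202 here too. Its ranks and the shares below hold for the analysed transcripts, and those over all annotated transcripts are not known. In controls NADSYN1 was highest (96.7 and 80.2), followed by PFAS (71 and 56.8), CTPS1 (59.1 and 52.2), CAD (54.6 and 46.5), GMPS (48.9 and 46.5), PPAT (29.4 and 28.6) and CTPS2 (23.1 and 20.3). The libraries of PFAS and CTPS1, of CTPS1 and CAD, and of CAD and GMPS overlapped. Inside each of the 2 control libraries PFAS lay above CTPS1 and CTPS1 above CAD. CAD and GMPS were both at 46.5 in control replicate 2, so their order is not resolved. In deprived cells CTPS1 came first (267 and 264), ahead of PFAS (55.1 and 60.7), NADSYN1 (48.6 and 51.6), GMPS (45 and 47.5), CAD (27.5 and 35.3), PPAT (25.5 and 30.8) and CTPS2 (11.5 and 12.2). Among these neighbours the libraries of CAD and PPAT overlapped, with CAD above PPAT inside each deprived library. Between the groups, the libraries of PPAT, PFAS and GMPS overlapped on this scale, and those of the other 4 genes did not. CTPS1 supplied 15.4% and 15.8% of the summed level of the 7 genes in controls and 55.6% and 52.6% in deprived cells, while the share of NADSYN1 was 25.3% and 24.2% in controls and 10.1% and 10.3% in deprived cells.

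The deposited values are per transcript, and 77 transcripts of the 7 genes had one. Of these, 20 made up at least 5% of their gene's counts in some library. The annotated transcript CTPS1-202 is not analysed here, so the CTPS1 sum is over 18 of 19 annotated transcripts. In the test over 88815 transcripts, 0.719% were called higher and 0.314% lower. Of the 20, edgeR called CTPS1-217 higher (20.2 and 18.4 CPM in controls, 101 and 121 in deprived cells, 2.52 ± 0.17, adjusted p = 0.0442) and none lower. That call was lost whenever any 1 library was left out, with library size alone and without the filter on low counts, whereas DESeq2 called 6 of the 20 higher and 3 lower.

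The analysed CTPS1 counts lay mostly on transcripts annotated as retaining an intron: 57.7% and 63.8% in controls and 61.5% and 59.8% in deprived cells. Over all protein-coding genes that share was between 4.81% and 5.41%. The CTPS1 share was taken without CTPS1-202, which is annotated with coding bases. Its value over all annotated CTPS1 transcripts is therefore not known. The class share of CTPS1 was much alike in the 4 libraries, but its division was not. CTPS1-211 held 19.3% and 37.4% of the counts in controls and 44.8% and 23.9% in deprived cells, and CTPS1-213 held 35.3% and 20.7%, then 14.3% and 32.8%. Replicates of one group differed here as much as the groups did. Together the pair held 54.6%, 58%, 59.1% and 56.7%.

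Compared with CTPS1-202 inside their shared span, CTPS1-211 differs only by a retained intron of 79 bases at chr1:41008715-41008793. It is printed in capitals with 15 exonic bases on either side (plus strand), because the largest single share of CTPS1 counts in 2 of 4 libraries was assigned to the transcript that holds it.
CTPS1-211 retained intron: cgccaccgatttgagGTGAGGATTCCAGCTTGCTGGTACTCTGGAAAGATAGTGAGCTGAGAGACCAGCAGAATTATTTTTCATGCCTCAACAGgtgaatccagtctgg
How many reads lie inside those 79 bases cannot be read from values per transcript. CTPS1-213 retains an intron of 1325 bases (chr1:40996069-40997393), and the coding transcript CTPS1-217 holds 2 introns of CTPS1-211, of 571 and 1403 bases, in its last exon.

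CAD counts were divided between 2 coding transcripts that differ by the 189-base exon 13 and by their ends. CAD-201, which holds the exon, had 83.8% and 86.9% of counts in controls and 99.1% and 61.3% in deprived cells. CAD-202, which skips it, had 2949 and 2252 counts in controls but 0 in deprived replicate 1 and 5623 in deprived replicate 2. The 2 deprived libraries thus stood at opposite ends with the controls between them, and neither transcript was called (edgeR adjusted p = 0.304 for CAD-201 and 0.984 for CAD-202). The values were treated as estimated counts, and how shared reads were divided between transcripts is not given in the sources used here, so no counting limit is given for the 0. Exon 13 lies at chr2:27226131-27226319 (plus strand) and is coding throughout. It is printed in capitals with 15 bases of the exons that join it, as the sequence that sets the 2 transcripts apart.
CAD exon 13: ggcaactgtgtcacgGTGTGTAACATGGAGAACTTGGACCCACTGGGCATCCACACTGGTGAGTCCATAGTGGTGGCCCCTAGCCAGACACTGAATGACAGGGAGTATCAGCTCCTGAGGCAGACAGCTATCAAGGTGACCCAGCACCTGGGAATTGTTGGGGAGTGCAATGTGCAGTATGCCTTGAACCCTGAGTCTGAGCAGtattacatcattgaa

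**Figure D3:**
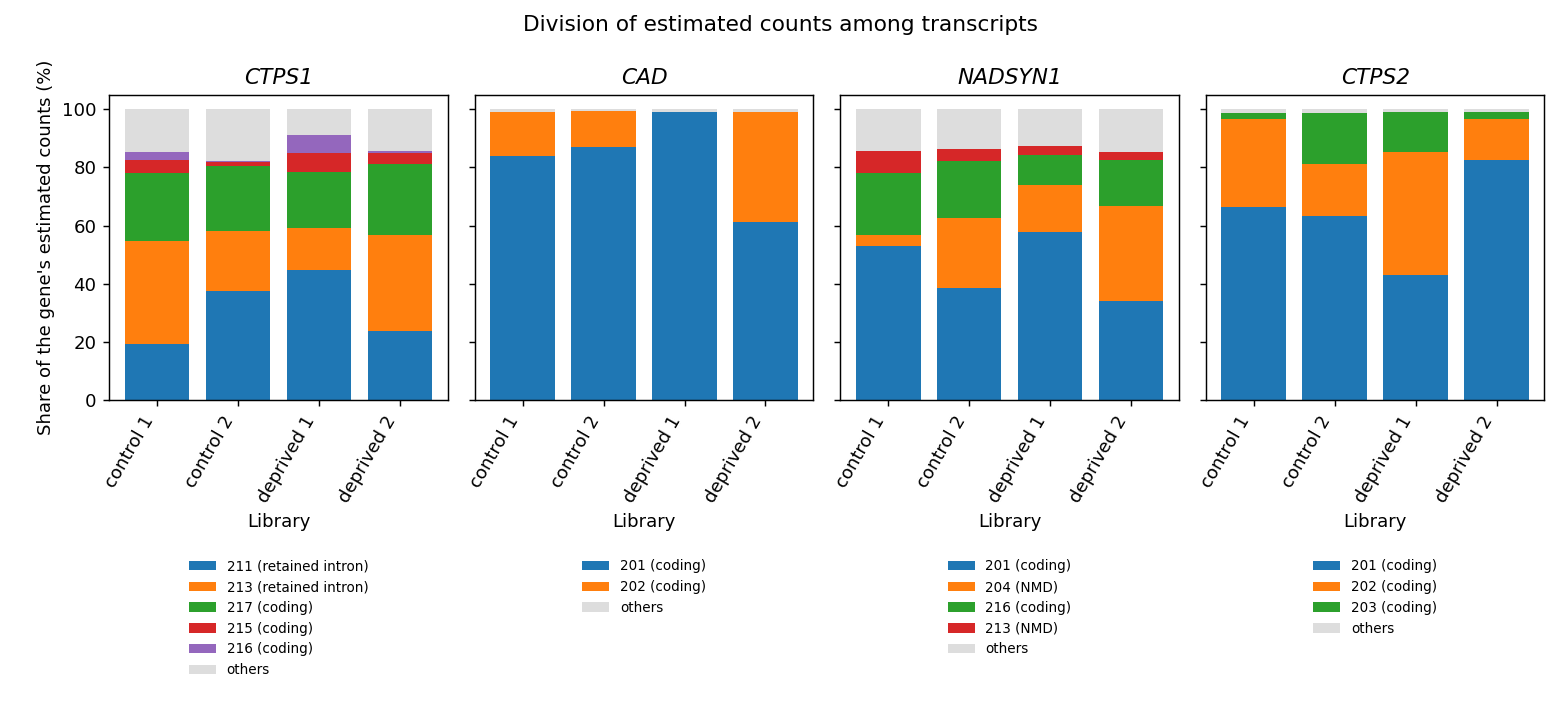
Share of each gene's estimated counts (%) by transcript in each of the 4 libraries for CTPS1, CAD, NADSYN1 and CTPS2; colours are the transcripts with at least 5% in some library, NMD marks transcripts annotated for nonsense-mediated decay, and grey is the rest. Replicates differ within groups, as for CTPS1-211 at 44.8% and 23.9% and CAD-202 at 0% and 37.9% in the 2 deprived libraries.

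NADSYN1 was spread over 23 annotated transcripts. Its main coding transcript NADSYN1-201 held 53% and 38.5% of counts in controls and 57.8% and 34.2% in deprived cells, and NADSYN1-204, annotated for nonsense-mediated decay, held 3.64% and 24.1%, then 16% and 32.4%. Both groups contain a library with a high and one with a low share of each. CTPS2-201 held 66.4% and 63.4% in controls and 42.9% and 82.5% in deprived cells. The purine genes were more uniform. PPAT-201 held 85.2% and 90.5% of PPAT counts in controls and 96.7% and 95.2% in deprived cells, and PPAT-202, which retains an intron, 14.4% and 9.11%, then 3.15% and 4.7%. PPAT-202 did not pass edgeR's test (-1.29 ± 0.41, adjusted p = 0.176), nor did PPAT-201 (0.40 ± 0.15, adjusted p = 0.217). DESeq2 called PPAT-202 lower (-1.28, adjusted p = 0.0121) and PPAT-201 higher (0.41, adjusted p = 0.0121). PFAS-201 held at least 91.9% and GMPS-203 at least 89.2% in each library.

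The remaining genes of these pathways were counted in 6 lists that hold 56 genes, of which 55 were tested. Of these, 17 were higher (30.9%) and 24 lower (43.6%), beside 34.3% and 29.8% of all protein-coding genes, and their median change was -0.17 beside 0.01. With library size as the only scaling 11 of them were higher.

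Among 10 genes of purine synthesis that use no glutamine, 2 rose and 6 fell (median -0.39), with 1 higher under several other settings, among them library size alone and the fits without control replicate 1, control replicate 2 or deprived replicate 1. PRPS2, which makes the phosphoribosyl donor that PPAT consumes, was at 54.3 and 60.8 CPM in controls and 15.6 and 14.4 in deprived cells (-1.94 ± 0.09, edgeR adjusted p = 3.06e-05). IMPDH1, which makes the XMP that GMPS aminates, was at 114 and 110.3 CPM and then 56.3 and 52.1 (-1.05 ± 0.07, adjusted p = 0.000104). PRPS2 and IMPDH1 were thus lower in each deprived library. PRPS1, the paralogue with the same activity as PRPS2, named here after its values were seen, was called lower too (-0.49 ± 0.09, edgeR adjusted p = 0.0054). It was at 84.8 and 97.6 CPM in controls and 66.7 and 63 in deprived cells, above PRPS2 in each library. IMPDH2, the paralogue with the same activity as IMPDH1, named here after its values were seen, was at 129 and 137 CPM in controls and 138 and 115 in deprived cells, with overlapping groups, and was not called (-0.08, adjusted p = 0.569). With library size as the only scaling IMPDH2 was called lower (-0.42, adjusted p = 0.00572). GART, whose protein carries out 3 steps on either side of PFAS, rose by 0.71 ± 0.07 from 109.7 and 106 to 176 CPM in each deprived library (adjusted p = 0.000319). ADSS1, which leads from IMP towards AMP, fell by 1.78 ± 0.20 (adjusted p = 0.000627) at levels under 8 CPM. Its paralogue ADSS2, with the same activity and named here after its values were seen, was not called (-0.14, edgeR adjusted p = 0.225). ADSS2 was at 42.3 and 46.4 CPM in controls and 41.7 and 39 in deprived cells. With library size as the only scaling ADSS2 was called lower (-0.47, adjusted p = 0.00212).

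Among 9 genes of pyrimidine synthesis without glutamine, 4 rose and 4 fell (median -0.12). The 4 with the smallest p were the nucleoside diphosphate kinase family genes NME6 (0.92 ± 0.08), NME4 (-0.91 ± 0.13) and NME3 (-0.44 ± 0.07), and DHODH, the mitochondrial step between CAD and UMP (18.2 and 17.9 CPM in controls, 12.6 and 10.6 in deprived cells, -0.64 ± 0.12, edgeR adjusted p = 0.00672). The family thus held changes in both directions. The number higher went from 4 to 1 with library size alone and to 2 without control replicate 1, and NME3 and NME4 were not called when protein-coding transcripts alone were summed (adjusted p = 0.113 and 0.0916).

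Nucleotide salvage, which reuses bases and nucleosides without new nitrogen, had 4 genes higher, 4 lower and 4 not called of 12 (median -0.03). UPP1, which splits uridine to uracil, was at 46 and 42.9 CPM in controls and 217 and 181 in deprived cells (2.16 ± 0.11, edgeR adjusted p = 3.45e-05). The mitochondrial deoxynucleoside kinases DGUOK (1.58 ± 0.10) and TK2 (1.04 ± 0.08) rose, whereas the cytosolic thymidine kinase TK1, known to follow the cell cycle, fell by 1.00 ± 0.09 from 212 CPM in each control to 113 and 99.3.

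In NAD synthesis 2 of 14 tested genes rose and 7 fell (median -0.34), with 3 lower when control replicate 1 was left out. KYNU, an enzyme of the route from tryptophan that leads to NADSYN1, was at 238 and 244 CPM in controls and 486 and 481 in deprived cells (1.00 ± 0.07, edgeR adjusted p = 0.000112). Of earlier genes of that route, AFMID fell by 0.87 ± 0.13 and TDO2 by 2.02 ± 0.24, the latter from under 3 CPM. KMO, the step before KYNU, named here after its values were seen, was at 1.77 and 3.09 CPM in controls and 5.98 and 3.79 in deprived cells and was not called by edgeR (adjusted p = 0.055), but was called higher by DESeq2 (adjusted p = 0.00902), by limma-voom (0.0428) and with the filter of 50 counts (0.0448). HAAO and QPRT, the steps after KYNU, are also named after their values were seen. HAAO had 18 and 19 estimated counts in controls and 0 in each deprived library and was called lower (edgeR adjusted p = 0.00975). QPRT was at 2 and 0.309 CPM in controls and 0.0862 and 0.424 in deprived cells. It was not called (edgeR adjusted p = 0.131). NMNAT2, which makes the dinucleotide NADSYN1 amidates, rose by 1.77 ± 0.23 from 1.88 and 2.11 CPM to 5.69 and 7.98. Its paralogues NMNAT1 and NMNAT3 share that activity and are named here after their values were seen. NMNAT1 was at 13.1 and 12.1 CPM in controls and 11.1 and 11.7 in deprived cells and was not called (-0.15, edgeR adjusted p = 0.337). NMNAT3 fell by 0.86 ± 0.25 (edgeR adjusted p = 0.0314) at levels under 4 CPM, a call lost without the filter on low counts (0.0631).

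Of 7 genes listed as other users of the amide nitrogen, 4 rose and 2 fell (median 0.56). The list includes CPS1, whose enzyme takes free ammonia and not glutamine, and which was not called (-0.09). ASNS was at 53.5 and 52.5 CPM in controls and 579 and 529.8 in deprived cells, a rise of 3.39 ± 0.09 (edgeR adjusted p = 8.64e-06), so ASNS and CTPS1 had the largest changes of the amide users tested here. GFPT1, at the entry to hexosamine synthesis, rose by 1.03 ± 0.07. GFPT2, its paralogue with the same activity, named here after its values were seen, fell by 0.45 ± 0.08 (edgeR adjusted p = 0.00567). It went from 26.9 and 28 CPM in controls to 20.8 and 19.4 in deprived cells. QRSL1, a subunit of the mitochondrial glutaminyl-tRNA amidotransferase, rose by 0.60 ± 0.07. GATB, another subunit of that enzyme, fell by 0.88 ± 0.09 (27.4 and 26.2 CPM in controls, 15 and 14.1 in deprived cells), so its subunits moved unequally. GLUL, the gene of glutamine synthetase, which makes glutamine itself, was at 32.8 and 36.8 CPM in controls and 17.4 and 16.7 in deprived cells and fell by 1.03 ± 0.09 (edgeR adjusted p = 0.000244).

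**Figure D4:**
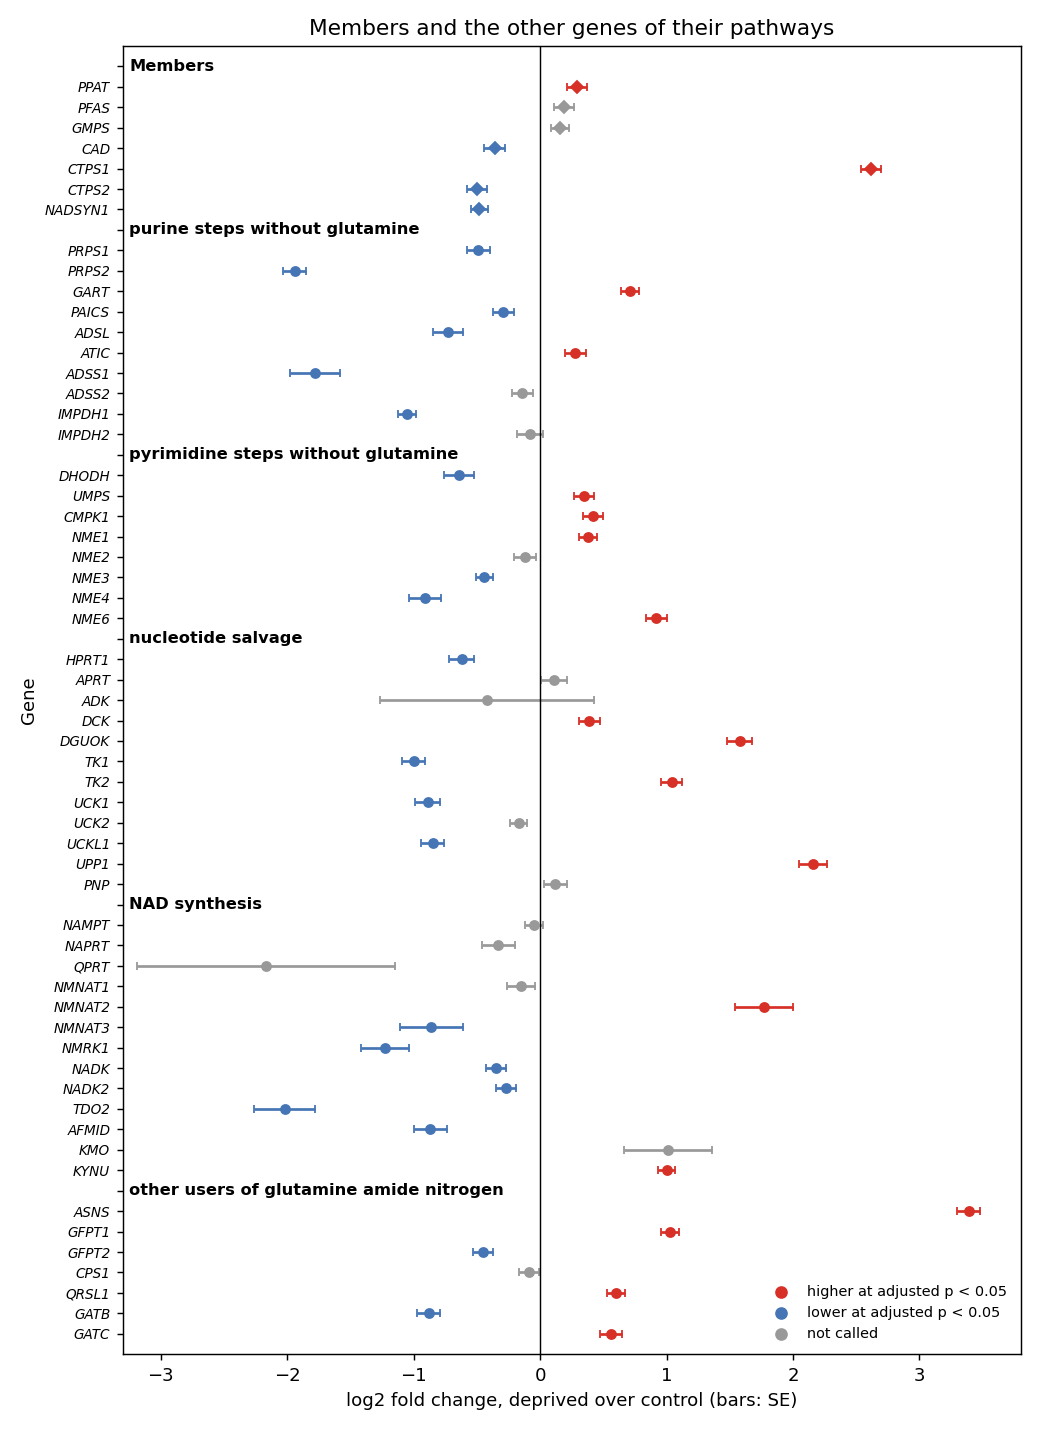
Log2 fold change (deprived over control, bars SE) of the 7 genes (diamonds) and of the tested genes of 5 of the 6 lists (circles), coloured by edgeR's call; genes under 1 CPM in both group means are left out. CTPS1 at 2.62 and ASNS at 3.39 lie furthest to the right.

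Each of the 7 changes was lowest with library size as the only scaling, as the plot of changes by setting shows. PPAT, PFAS and GMPS then lay just below 0, and CTPS1 at 2.28.

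**Figure D5:**
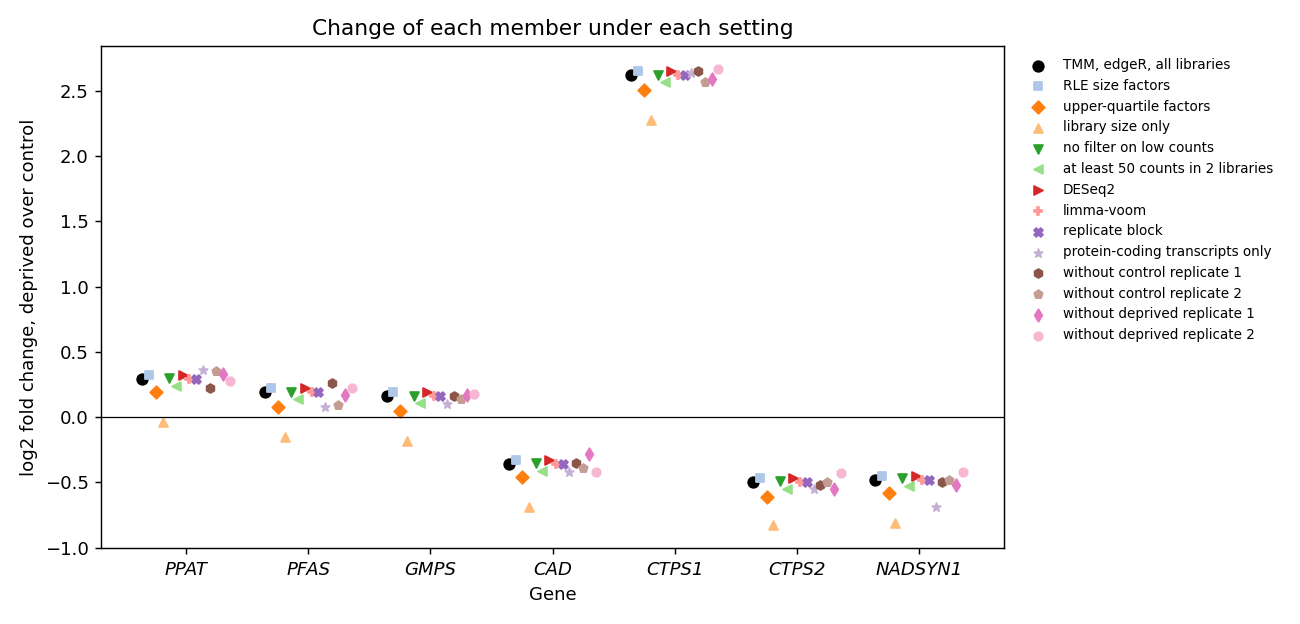
Log2 fold change (deprived over control) of each gene under the main setting (black) and 13 alternatives, 1 symbol per setting. PPAT, PFAS and GMPS cross 0 with library size alone, while CAD, CTPS2 and NADSYN1 stay below 0 and CTPS1 stays between 2.28 and 2.67.

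Profiles over the 4 libraries were compared with those of 9517 protein-coding genes with a mean of at least 10 CPM, by the distance between log2 CPM values centred on their mean. CTPS1 had 39 genes within 0.2, the nearest being EPHA5 (0.0231), MAP3K14 (0.041) and TNFRSF10B (0.0414). EPHA5 had group means of 2.85 CPM in controls and 17.4 in deprived cells, so it met the 10 CPM limit only through its deprived level. The other 6 genes had between 543 and 1179 genes within 0.2. PPAT lay nearest to G3BP2 (0.00977), MOSPD2 and CUL2, PFAS to ZNF512B and ENTR1, and GMPS to AP1AR, C6orf89 and SLC31A1. CAD lay nearest to LMBR1, NADK and FBXL20, and CTPS2 to LRIG3 (0.00802), MYO15B and STRBP. CTPS2 itself was the third nearest gene to NADSYN1 (0.0283), after SYNGR2 and TANGO2. With 4 libraries in 2 groups such a distance mostly reads the size of the change.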

How the data were processed

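The authors deposited 1 value per transcript (229420 transcripts) for each of 4 poly-T purified RNA libraries of A549 cells. The tools named by the submitters' processing notes are featureCounts 1.5.0-p3, DESeq2 1.20.0 and HISAT2 2.0.5, on hg38, without their roles. The deposited values are whole numbers and were treated as estimated counts, since in 43.7% of 7456 pairs the transcript that covers another had the lower value. Which quantifier, annotation and strand setting produced them is not given in the sources used here. Values of 205306 transcripts matched by Ensembl ID to GENCODE 29 (at least 98% of each library) were summed to genes, and depth was 101496318 to 123414592 per library.

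Genes passing filterByExpr were tested with edgeR 4.0.16 (TMM, quasi-likelihood, two-sided, Benjamini-Hochberg over all genes, threshold 0.05, R 4.3.3). SE was derived from the F statistic. DESeq2 1.42.0 and limma 3.58.1 (voom), other scalings and filters, coding transcripts alone, a replicate block and leaving out each library were alternatives. Scripts were tested on simulated data. A deposited table of FPKM with 1 value per group was not used. The genes and lists were chosen with earlier results of these data known. Named were all 7 genes, up to 4 genes per list with the smallest p, PAICS, the 3 nearest profiles and transcripts with at least 5% of their gene's counts; 2 genes that this rule names are not reported here.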

Additional observations from a re-analysis of the deposited data

How the results depend on the processing

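CAD, CTPS1, CTPS2 and NADSYN1 kept direction and call in all 13 alternatives run. Scaling by library size alone gave -0.04 for PPAT, -0.15 for PFAS and -0.18 for GMPS (edgeR adjusted p = 0.713, 0.213 and 0.0978), -0.05 for ATIC, -0.23 for APRT, -0.21 for PNP, -0.20 for PFAS-201, -0.23 for GMPS-203 and -0.13 for CAD-202. It left 1 of the 7 genes, 11 list genes and 0 of their transcripts higher. Upper-quartile scaling gave 0.19 for PPAT and 1 gene higher. DESeq2 gave 0.19 for GMPS and 6 transcripts higher with 3 lower, and for PFAS an adjusted p of 0.0503. Without the count filter 0 transcripts were higher. With coding transcripts alone ATIC was at -0.16 and the CTPS1 to CTPS2 difference was 3.21. The causes were not tested.

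Over the fits that each left out 1 library, where a lone sample is assumed to vary like the other group, 1 to 2 of the 7 genes and 0 transcripts were higher. PPAT ranged from 0.22 to 0.35, PFAS from 0.09 to 0.26, GMPS from 0.14 to 0.18 and the CTPS1 to CTPS2 difference from 3.07 to 3.16. Genes and transcripts whose sign turned there were IMPDH2 (-0.21 to 0.06), APRT (-0.03 to 0.26), ADK (-2.06 to 0.78), PFAS-205 (-0.57 to 4.29), CAD-202 (-14.30 to 1.16), CTPS2-202 (-1.32 to 0.41), CTPS2-203 (-2.52 to 1.52) and NADSYN1-204 (-0.52 to 2.22).

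The labels number the replicates 1 and 2 in both groups without saying that a number pairs them, and same-numbered deviations correlated at 0.0907 over 14866 genes. With the replicate number as a block, 5529 genes were higher and 5079 lower (6174 and 5982 without it), no call of the 7 genes changed, 0 of their transcripts were higher and CAD-202 was at -4.41. PAICS then had an adjusted p of 0.0680. Depth limits none of the 7 genes, the lowest of which had 2690 counts in a library. The number of replicates does.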
